A study of Nomascus leucogenys with 9 samples.

Results

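The 9 genes described here encode transcription factors, and 1 receptor, of host pathways on which Epstein-Barr virus (EBV) acts when it drives B lymphocytes into continuous growth. They were chosen by human Ensembl identifier and known role from a table of 15356 rows, not by a cut on their measured values. Earlier results of these data were known when the list was made. They are MYC (ENSG00000136997) and its partner MAX (ENSG00000125952), the Notch-pathway genes NOTCH2 (ENSG00000134250), RBPJ (ENSG00000168214) and HES1 (ENSG00000114315), RUNX3 (ENSG00000020633), RUNX1 (ENSG00000159216), and the AP-1 factors BATF (ENSG00000156127) and JUNB (ENSG00000171223). All 9 identifiers were in the table, 0 were absent, and all 9 passed the filter on low rows.

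Expression had been profiled by RNA-seq in 9 lymphoblastoid lines, that is, cultured lymphocytes transformed with EBV, each established from a different northern white-cheeked gibbon (Nomascus leucogenys). The study, on the gibbon retrotransposon LAVA, had 1 group: every line carried EBV, and no treatment, genotype, sex or age was given. Lines are cited by number, after the animal: Asia is line 1, Bobby line 2, China line 3, Khao line 4 and Melouprey line 5, followed by Nancy as line 6, Phyllis as line 7, Ricky as line 8 and Vok as line 9. Each line had 1 library, so a difference between lines cannot be set against the error within a line, and animal, culture and transformation event cannot be told apart. For the same reason neighbours in the order of the lines cannot be separated, and p-values measure only the spread between these libraries. In bulk RNA, fewer cells that express a gene and less RNA per cell cannot be told apart.

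In EBV-transformed human B cells the viral protein EBNA2 has no DNA-binding domain of its own. It is brought to DNA mainly by RBPJ, the same protein that activated Notch receptors use, and so turns on genes that Notch signalling would turn on. MYC is among the genes activated through EBNA2-bound enhancers and drives cell growth together with MAX. RUNX3 is also activated by EBNA2, and in human lymphoblastoid lines RUNX3 protein represses RUNX1. BATF and JUNB form AP-1 dimers that bind DNA together with IRF4, at many sites that EBV nuclear proteins also occupy. Transcripts of EBV were not analysed here.

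Levels are given as the deposited values, read as log2 units, so that 1 unit is a 2-fold difference. They are not divided by transcript length, and levels of different genes are therefore not compared. Base-2 column sums were nearly equal, from 13728358 to 14059842, because the deposited values were already normalised; sequencing depth is therefore unknown, and counting error could not be estimated. The labelled cell type was not checked against B cell markers, because the table does not pair identifiers with symbols.

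HES1 differed most between the lines and MAX least. The highest line exceeded the lowest 3.65-fold for HES1, 2.99-fold for RUNX1, 2.95-fold for NOTCH2, 2.14-fold for RUNX3 and 2.01-fold for RBPJ. The same ratio was 1.89-fold for MYC, 1.72-fold for BATF, 1.68-fold for JUNB and 1.19-fold for MAX. A range of at least 2-fold was thus found in 5 of the 9 genes, against 26.4% of the 12590 rows kept, and a range of at least 4-fold in 0 of the 9, against 6.18%. The median range of the 9 genes was 2.01-fold and that of the kept rows 1.60-fold. The count of 5 rested in part on single lines: it was 2 without line 1 (against 22.1% of rows), when only HES1 and NOTCH2 reached 2-fold, and 3 without line 4. It was 4 when the columns were scaled to equal totals, since RBPJ lies at the 2-fold limit.

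**Figure D1:**
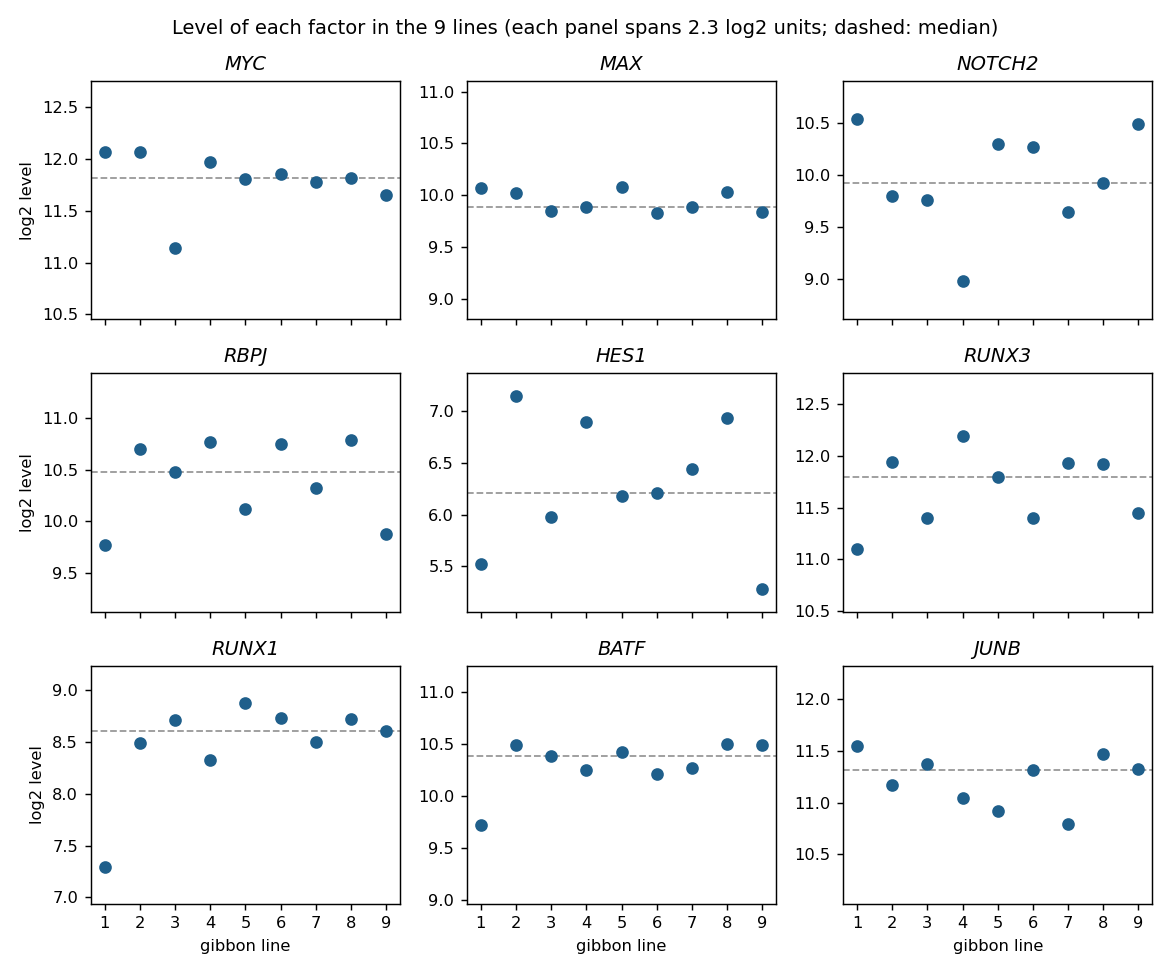
Deposited log2 level (vertical axis) of each gene in the 9 gibbon lines (horizontal axis), with 1 point per line and a dashed line at the median. All panels span the same number of log2 units, so the scatter can be compared: MAX lies almost flat, and HES1 and NOTCH2 are spread throughout. RUNX1, BATF and MYC each have 1 low line. NOTCH2 also has its lowest line, line 4, 0.66 log2 units below the next.

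**Figure D2:**
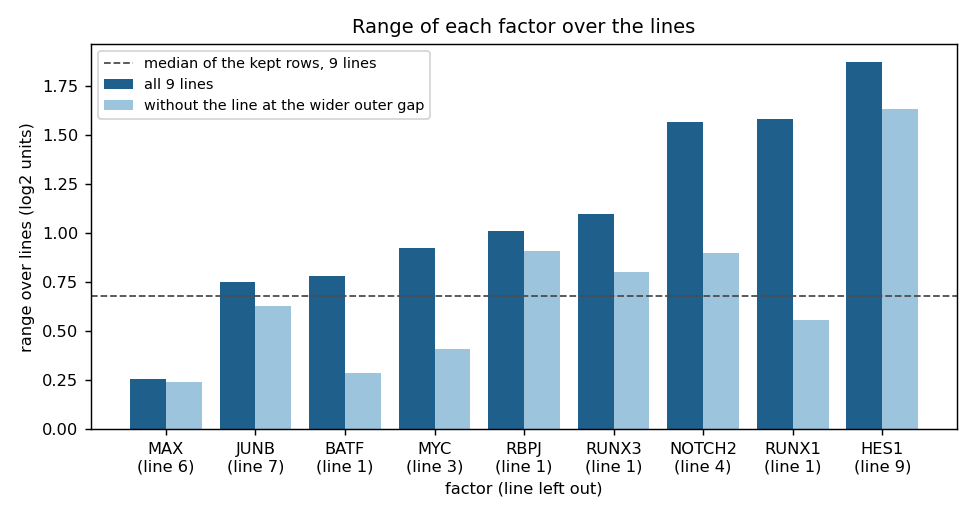
Range over the lines in log2 units for each gene, with all 9 lines (dark bars) and without the line at the wider of the outer gaps, named under the gene (light bars); the dashed line is the median range of the kept rows, 0.68 log2 units. Leaving out line 1 brings RUNX1 from 1.58 to 0.56 and BATF from 0.78 to 0.29, while HES1 goes from 1.87 to 1.63.

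MYC, which regulates cell growth and metabolism, was alike in 8 of the 9 lines and low in 1. Its level was lowest in line 3, at 11.14 log2 units, with a median of 11.82 and a highest value of 12.06 in line 2 (mean 11.80 ± 0.28, SD, n = 9). The next lowest line, line 9, stood at 11.66, so that line 3 lay at least 0.51 log2 units (1.43-fold) below every other line. Without line 3 the range of MYC was 0.41 log2 units. In parts per 1000000 (ppm) of the linear column total, MYC stood at 161.7 in line 3 and between 234.9 and 307.3 in the others.

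MAX, the partner that MYC needs to bind DNA, hardly differed between lines. Its level was lowest in line 6, at 9.82 log2 units, with a median of 9.89 and a highest value of 10.08 in line 5 (mean 9.94 ± 0.11, SD, n = 9). Only 7.82% of the 6429 rows in its class of mean level (10 to 100 ppm) had a smaller SD. MYC and MAX correlated with r = 0.51 over the 9 lines (two-sided exact permutation p = 0.15; rho = 0.40, p = 0.29), with a limma adjusted p of 0.998, and with r = 0.40 without lines 2 and 3 (exact permutation p = 0.37, n = 7). Relative to MAX, MYC was 0.60 log2 units below its median in line 3, and the MYC to MAX ratio spanned only 0.36 log2 units over the other 8 lines.

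NOTCH2, a cell surface receptor that is cut on ligand binding and sends its inner part to RBPJ, had its lowest level in line 4. It stood there at 8.98 log2 units, with a median of 9.93 and a highest value of 10.54 in line 1 (mean 9.97 ± 0.50, SD, n = 9). Line 9, at 10.49, followed line 1 closely. The lowest line lay 0.66 log2 units below the next, line 7, at 9.64, and without line 4 the range was 0.90. NOTCH2 has partial copies of nearly identical sequence in the human genome. The genome build used here, and how reads shared with any such copies were counted, are not stated. Whether this affected its level is therefore unknown.

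RBPJ, the DNA-binding factor shared by Notch and EBNA2, was low in lines 1 and 9. It reached 9.77 log2 units in line 1 and 9.88 in line 9, with a median of 10.48 and a highest value of 10.79 in line 8 (mean 10.40 ± 0.39, SD, n = 9). Lines 2, 4, 6 and 8 formed the upper end, between 10.70 and 10.79. Those 4 lines differed by less than 0.1 log2 units, whereas lines 1 and 9 lay 0.70 and 0.60 below the median.

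HES1, a repressor gene that Notch signalling activates through RBPJ, was the most variable of the 9. It was lowest in line 9, at 5.28 log2 units, and next in line 1, at 5.52, with a median of 6.21 (mean 6.29 ± 0.64, SD, n = 9). The upper end was line 2, at 7.15, followed by line 8 at 6.93 and line 4 at 6.89. In ppm of the linear total it ran from 2.83 in line 9 to 10.1 in line 2. It was the only gene of the 9 in the lowest class of mean level (1 to 10 ppm), where 90.7% of 3833 rows had a smaller SD. The lines that were low in HES1 were thus the same 2 that were low in RBPJ and high in NOTCH2.

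Levels of HES1 and RBPJ correlated positively across lines, and both correlated negatively with NOTCH2. For RBPJ and HES1, r was 0.84 (two-sided exact permutation p = 0.0052; rho = 0.78, p = 0.017; n = 9). For NOTCH2 and HES1, r was -0.71 (exact permutation p = 0.032; rho = -0.62, p = 0.086), and for NOTCH2 and RBPJ, r was -0.66 (exact permutation p = 0.049; rho = -0.62, p = 0.086). None of these pairs passed once adjusted over all rows in limma, with Benjamini-Hochberg adjusted p of 0.13 for RBPJ and HES1, 0.55 for NOTCH2 and HES1, and 0.57 for NOTCH2 and RBPJ. With the second gene of each pair as predictor, the limma adjusted p was 0.13, 0.22 and 0.26, in the same order. Without lines 1 and 9, the farthest from the RBPJ median, r of RBPJ and HES1 was 0.59 (exact permutation p = 0.15, n = 7). Leaving out line 1 alone gave 0.80, and the lowest r with any 1 line left out was 0.79, so the sign and most of the size did not rest on 1 line, while the unadjusted p no longer passed without both. Without lines 1 and 4, the farthest from the NOTCH2 median, r was -0.63 with HES1 (exact permutation p = 0.14, n = 7) and -0.49 with RBPJ (exact permutation p = 0.26, n = 7). The sign stayed the same in all 3 pairs whichever line was left out, but the unadjusted p of both NOTCH2 pairs depended on line 1. Without line 1 alone, r of NOTCH2 and HES1 was -0.63 (exact permutation p = 0.091, n = 8). That of NOTCH2 and RBPJ was -0.56 (exact permutation p = 0.15, n = 8). The ratio of HES1 to NOTCH2 within a line spanned 8.74-fold from line 9 to line 4, and that of HES1 to RBPJ 2.06-fold from line 9 to line 2.

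No correlation was detectable between RBPJ and MYC, with r = 0.036 (exact permutation p = 0.94; rho = 0.22, p = 0.58; n = 9) and a limma adjusted p of 0.97. The sign turned when line 2, 4 or 9 was left out, at -0.076, -0.054 and -0.066, and r without lines 1 and 9 was 0.32 (exact permutation p = 0.52, n = 7).

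RUNX3, the RUNX gene that EBV activates, was lowest in line 1 and highest in line 4. Its levels were 11.10 and 12.19 log2 units, with a median of 11.79 (mean 11.68 ± 0.36, SD, n = 9). Below the median lay a set of close values, with lines 3 and 6 at 11.40 and line 9 at 11.44. Above it lay lines 2, 7 and 8, between 11.92 and 11.94.

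RUNX1, the related factor known from blood stem cells and leukaemia, was low in a single line. It stood at 7.30 log2 units in line 1, with a median of 8.61 and a highest value of 8.88 in line 5 (mean 8.47 ± 0.47, SD, n = 9). The next lowest line, line 4, was at 8.32, a gap of 1.02 log2 units or 2.03-fold. The other 8 lines spanned 0.56 log2 units.

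The relation between RUNX3 and RUNX1 turned with line 1, which was lowest in both. Over all 9 lines r was 0.41 (two-sided exact permutation p = 0.28), while rho was -0.22 (p = 0.58), and the limma adjusted p was 0.53. Without line 1, r was -0.59 (exact permutation p = 0.13) and rho -0.74 (exact permutation p = 0.046, unadjusted, n = 8). Without lines 1 and 4, r was -0.32 (exact permutation p = 0.45, n = 7). Lines 2, 4 and 7, with RUNX3 between 11.93 and 12.19, had RUNX1 at 8.49, 8.32 and 8.50, but line 8, with RUNX3 at 11.92, had RUNX1 at 8.72. The direction of this pair is therefore not fixed by these lines.

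BATF, an AP-1 factor of B and T cells, was also low in line 1 alone. It stood at 9.72 log2 units there, with a median of 10.39 and a highest value of 10.50 in line 8 (mean 10.31 ± 0.25, SD, n = 9). The other 8 lines lay within 0.29 log2 units, and the gap to line 1 was 0.49, or 1.41-fold.

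JUNB, a dimer partner of BATF, had no line apart. It ran from 10.80 log2 units in line 7 through a median of 11.32 to 11.55 in line 1 (mean 11.22 ± 0.25, SD, n = 9). Line 1 thus had the lowest BATF and the highest JUNB, and its JUNB to BATF ratio lay 1.003 log2 units above the median ratio. BATF and JUNB correlated with r = -0.29 (two-sided exact permutation p = 0.48), with rho = 0.033 (p = 0.95; n = 9) and a limma adjusted p of 0.71. Without line 1, r was 0.38 (exact permutation p = 0.34, n = 8), and without lines 1 and 6 it was 0.65 (exact permutation p = 0.13, n = 7), so the sign of this pair also depended on line 1.

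**Figure D3:**
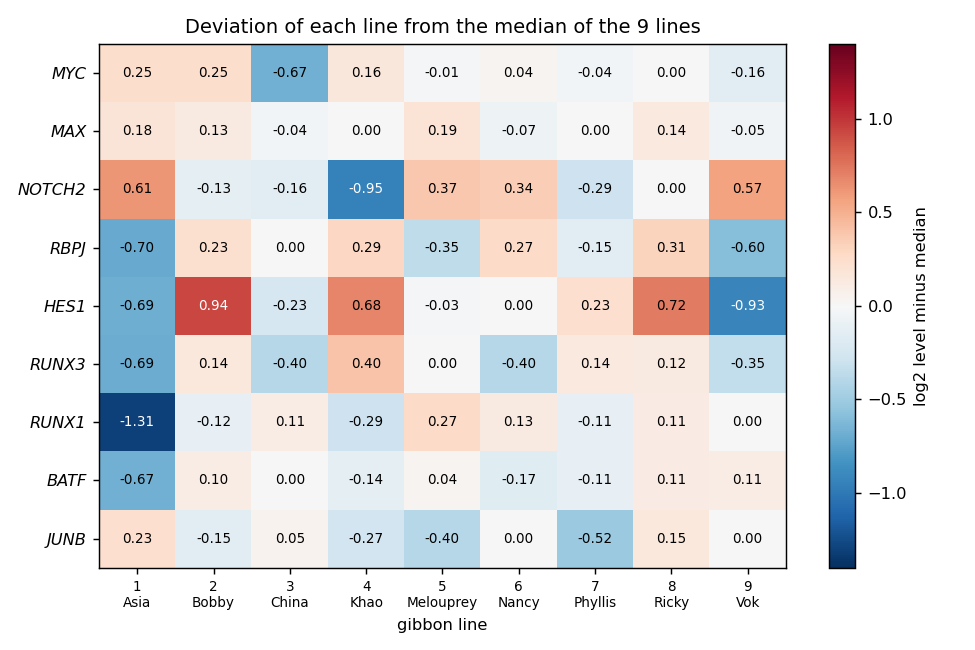
Difference of each line (columns) from the median of the 9 lines in log2 units, for each gene (rows), with red above and blue below the median. Line 1 is below the median in RBPJ (-0.70), HES1 (-0.69), RUNX3 (-0.69), RUNX1 (-1.31) and BATF (-0.67) and above it in NOTCH2 (0.61), and line 9 deviates the same way in NOTCH2 (0.57), RBPJ (-0.60) and HES1 (-0.93).

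A single line lay apart by Dixon's gap criterion (a gap to the next line that takes up too much of the whole range for 9 values) in 3 of the 9 genes, against 10.1% of all kept rows. These were MYC in line 3 and RUNX1 and BATF in line 1, each on the low side. The shares for line 1 that follow are descriptive only, because this line and side were picked after the values were seen. Line 1 was apart and lowest in 2 of the 9 genes, against 1.03% of kept rows. Line 1 was the lowest line in 4 of the 9 genes (RBPJ, RUNX3, RUNX1 and BATF), against 14.0% of kept rows, and the highest in 2 (NOTCH2 and JUNB), against 22.6% of kept rows. Its mean absolute deviation from the median was 0.59 log2 units over the 9 genes and 0.32 over all kept rows. In the other lines, the mean over the 9 genes lay between 0.16 and 0.35. It also exceeded the mean over all kept rows in line 2 (0.24 against 0.12) and line 4 (0.35 against 0.20). That was so in lines 7, 8 and 9 as well, but not in lines 3, 5 and 6. Over the kept rows line 9 was close to line 1: its mean absolute deviation was 0.28 log2 units, its median absolute deviation was 0.21 against 0.20 in line 1, and it was the lowest line in 17.1% of rows. Lines 1 and 9 thus both lay away from the median in the whole table, and the part of that in the values of the 9 genes was not tested.

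**Figure D4:**
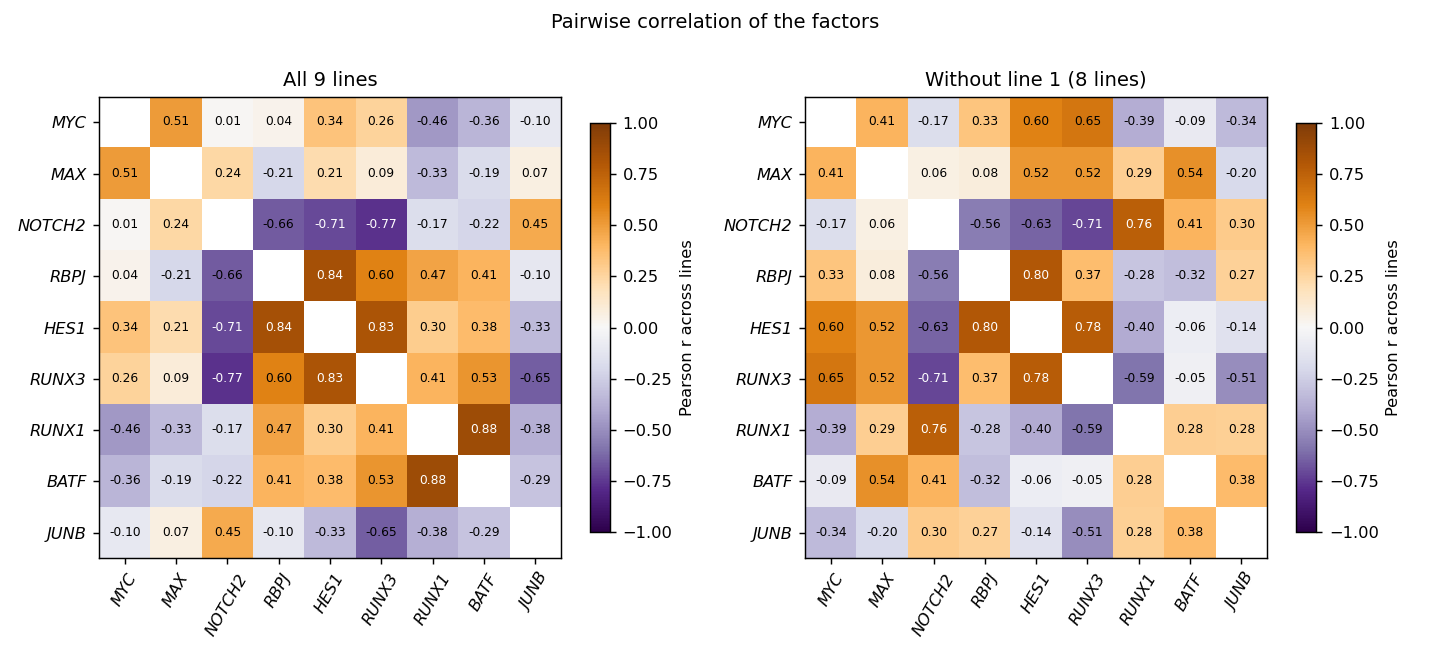
Pearson correlation across lines for each of the 36 pairs of the 9 genes, with all 9 lines (left) and without line 1 (right), from -1 (purple) to 1 (orange). The signs of RBPJ with HES1 (0.84 and 0.80), RUNX3 with HES1 (0.83 and 0.78) and RUNX3 with NOTCH2 (-0.77 and -0.71) are kept, while RUNX1 with BATF goes from 0.88 to 0.28 and RUNX3 with RUNX1 from 0.41 to -0.59.

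Of the 36 pairs, 20 correlated positively and 16 negatively over the 9 lines. By the two-sided exact permutation test of r, 6 (16.7%) had an unadjusted p under 0.05, but 0 passed in limma after adjustment over all rows (smallest adjusted p = 0.062, with either gene of a pair as predictor). Over all other kept rows, the share with an unadjusted limma p under 0.05 ran from 2.22% with MAX to 17.5% with RUNX3. It was 4.98% with MYC, 8.5% with NOTCH2, 10.6% with JUNB, 12.6% with RUNX1, 14.8% with BATF, 15.7% with HES1 and 16.1% with RBPJ. A low unadjusted p was thus common in this table with several of the genes. The 16.7% comes from a different test, so it cannot be set directly against these shares. Beside the Notch-pathway pairs, the pairs under 0.05 by permutation were RUNX1 with BATF, RUNX3 with HES1 and RUNX3 with NOTCH2. These additional pairs were chosen for naming after their values were seen. For RUNX3 and HES1, r was 0.83 (exact permutation p = 0.0077; rho = 0.75, p = 0.025; n = 9), with a limma adjusted p of 0.067, and 0.76 without lines 1 and 4 (exact permutation p = 0.043, n = 7). For RUNX3 and NOTCH2, r was -0.77 (exact permutation p = 0.012; rho = -0.72, p = 0.037; n = 9), with a limma adjusted p of 0.11, and -0.49 without lines 1 and 4 (exact permutation p = 0.23, n = 7). For RUNX1 and BATF, r was 0.88 (exact permutation p = 0.027; rho = 0.37, p = 0.34; n = 9), with a limma adjusted p of 0.12. That pair rested on line 1 alone: without it r was 0.28 (exact permutation p = 0.49, n = 8), and without lines 1 and 4 it was -0.026. With the second gene of a pair as predictor, the limma adjusted p was 0.14 for RUNX3 and HES1 and 0.55 for RUNX3 and NOTCH2. It was 0.062 for RUNX1 and BATF. Of the 36 pairs, 16 had the opposite sign without line 1.

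**Figure D5:**
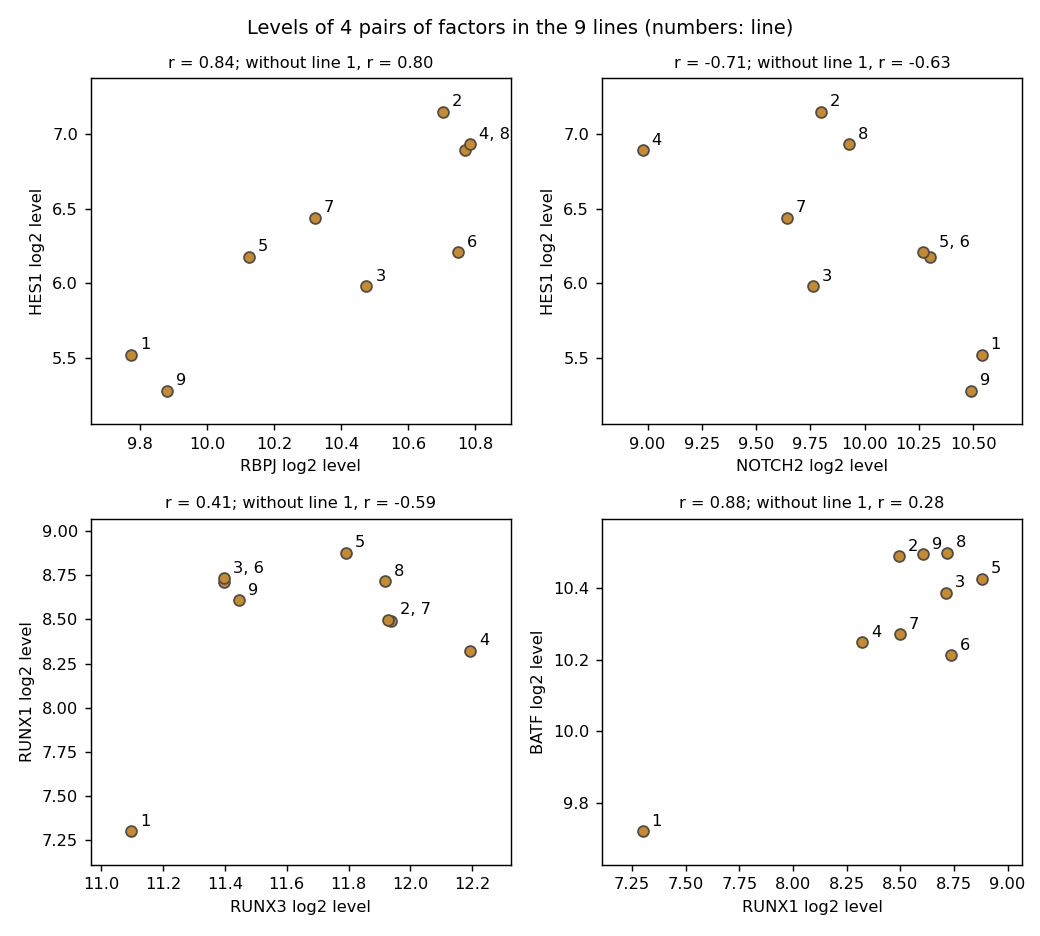
Log2 levels of 4 pairs of genes, with 1 point per line, labelled by line number. RBPJ and HES1 rise together and NOTCH2 and HES1 run opposite, with lines 1 and 9 at one end of both. In the lower panels line 1 lies far from the other 8. Over those 8, r of RUNX3 and RUNX1 is -0.59 (exact permutation p = 0.13, n = 8). The direction of that pair is not fixed by these lines.

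Each of the 9 genes was also set against every other kept row, to see how much of the table varied with it. In limma, with adjustment over 12589 rows and a threshold of 0.05, RUNX3 had 198 associated rows (1.57%), of which 92 ran with it and 106 against it; after quantile normalization the balance turned, with 132 positive and 123 negative. BATF had 65 (0.516%), with 24 positive and 41 negative, and RUNX1 had 28 (0.222%), with 4 positive and 24 negative. RBPJ had 1 (0.00794%). MYC, MAX, NOTCH2, HES1 and JUNB had 0 each (0%), with 627, 280, 1070, 1974 and 1329 rows at an unadjusted p under 0.05. None of the 9 genes was among the rows called for another.

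Line 1 changed these counts strongly. Without it, RUNX3 had 1 associated row and BATF and RUNX1 had 0, while RBPJ had 918. With the first principal component of the table as a covariate, HES1 had 554 associated rows, RBPJ 165, and RUNX3, RUNX1 and BATF 0.

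For each gene the row with the most similar profile over the 9 lines was sought by Pearson r. The highest r lay between 0.89 (for MAX) and 0.98 (for NOTCH2). A count of rows with r above 0.9 gave 69 for RUNX3, 41 for RBPJ, 36 for HES1, 30 for BATF, 17 for NOTCH2, 16 for RUNX1, 7 for JUNB, 4 for MYC and 0 for MAX. Rows with r below -0.9 numbered 87 for RUNX3, 65 for RUNX1, 64 for RBPJ, 51 for BATF, 41 for HES1, 9 for JUNB, 8 for MYC, 6 for NOTCH2 and 4 for MAX. The genes with the widest range were HES1 and RUNX1. The row most like HES1 was ENSG00000110066 (r = 0.97, limma adjusted p = 0.17) and the row most unlike it ENSG00000117682 (r = -0.96, adjusted p = 0.13). For RUNX1 these were ENSG00000095209 (r = 0.96, limma adjusted p = 0.12) and ENSG00000172264 (r = -0.98, adjusted p = 0.037). The 1 row associated with RBPJ, named after its values were seen, was ENSG00000144837 (r = 0.97, limma adjusted p = 0.030), which spanned 7.90 to 9.64 log2 units. Among all rows, 2.53% had a larger absolute r with RBPJ than HES1 had, and 1.07% had a larger absolute r with RUNX1 than BATF had.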

How the data were processed

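Per the labels' protocols, total RNA from each line was made into libraries with an Illumina TruSeq kit. Trimmomatic, STAR, DESeq2 and edgeR appear in the submitters' processing notes, without versions or roles. The log base, normalisation, build, annotation and strand setting were not given in the sources used here. The authors deposited 1 table of log-scale values, read here as log2 because the base-2 sums resemble read totals; columns were matched by line name, with 0 left unused. At the same rank, sorted columns differed by a median of 0.034 log2 units, so the values had been scaled between libraries, and folds are on that scale, where differences of low genes may be reduced.

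Symbols of the 9 genes came from the list that defined them. The list and the partner pairs (MYC-MAX, NOTCH2-RBPJ, NOTCH2-HES1, RBPJ-HES1, RBPJ-MYC, RUNX3-RUNX1, BATF-JUNB) were chosen with earlier results of these data known. No other identifier could be named: 0 matched the RefSeq table, so lists of further pathway genes and cell type markers, and promoter motifs, were not analysed here. By rule, rows most like a gene were named by identifier for the 2 genes with the widest range.

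A row was kept if its mean reached 1 ppm of the summed base-2 values (12590 rows). No pseudocount was added. Correlations over lines were tested by exact permutation, computed in NumPy 2.4.6 with ranks from SciPy 1.17.1. Adjusted p-values came from limma 3.58.1 in R 4.3.3: every kept row was regressed on the level of 1 gene, with a robust prior that follows the mean and Benjamini-Hochberg adjustment over the 12589 other rows; pairs were read with the first-named gene as predictor. The fit was run on simulated rows, drawn independently of each other, with planted signals of 3 and 7 SD. At 3 SD it recovered 97% to 100% of the planted rows, whose median r with the gene was at least 0.95. The highest r of the 36 pairs was 0.88. How the fit handles weaker associations, or rows that vary together, was therefore not tested. Alternatives were other scalings, filters, priors and a covariate, rank correlation, and leaving out each line.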

Additional observations from a re-analysis of the deposited data

Results flagged for a closer look

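Of 14 sets of 9 values checked for an outlying line (the 9 genes and 5 ratios between them), an outlying line was found in 5. The criterion passes about 1 in 20 sets of normally distributed values by chance, but in this table it passed 10.1% of the kept rows, and the ratios repeat the values of the genes. MYC in line 3, at 11.14 log2 units, lay far below the next line at 11.66, and the MYC to MAX ratio of that line was 0.60 log2 units below its median (a difference of -0.60). RUNX1 in line 1, at 7.30 log2 units, lay far below the next at 8.32. BATF in line 1, at 9.72 log2 units, lay below the next at 10.21, and the JUNB to BATF ratio of line 1 was 1.003 log2 units above its median. Over the kept rows the mean absolute deviation was 0.32 log2 units in line 1 and 0.28 in line 9, and the median absolute deviation 0.20 and 0.21; the part of these in the values above was not tested.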

How the results depend on the processing

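The ranges of the 9 genes moved by less than 1 SD, and the signs of MYC with MAX, NOTCH2 with RBPJ, NOTCH2 with HES1 and RBPJ with HES1 were kept, under the scalings, the pseudocount of 1 on the linear scale, the filters and the priors tried. The number of genes spanning at least 2-fold lay between 2 and 5 when 1 line was left out. Ranges lay between 0.41 and 0.92 log2 units for MYC (lowest without line 3), 0.90 and 1.56 for NOTCH2 (without line 4), 0.56 and 1.58 for RUNX1 and 0.29 and 0.78 for BATF (both without line 1). With 1 line left out, r lay between -0.076 and 0.33 for RBPJ with MYC, -0.59 and 0.57 for RUNX3 with RUNX1, and -0.45 and 0.38 for BATF with JUNB. The sign was reversed for RUNX3 with RUNX1 in the Spearman rank correlation (-0.22) and with the first principal component as a covariate (-0.35), and for BATF with JUNB likewise (0.033 and 0.60). With the first-named gene as predictor, none of the 10 named pairs passed in limma under any setting. The adjusted p of RBPJ with HES1 lay between 0.059 and 0.30. The second gene as predictor was tried only on the values as deposited, so whether a pair would pass that way under another setting was not tested.

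Counts of associated rows were the least stable results. For RBPJ the count was 7 with a filter of 5 ppm, 3 with a prior that is not robust and 165 with the principal component; for HES1 it was 554 with the component. For RUNX3 it was 0 with the component. For RUNX1 it was 8 after quantile normalization, 225 with no filter, 3 with a filter of 5 ppm and 0 with the component, and for BATF 279 with no filter, 29 with a filter of 5 ppm and 0 with the component. Leaving out 1 line gave 0 to 918 rows for RBPJ (918 without line 1, 11 without line 3, 0 without line 2, 4, 6, 7 or 9) and 1 to 313 for RUNX3 (1, 40, 131, 313, 105 and 92 without lines 1, 2, 5, 6, 7 and 8). It gave 0 to 124 for RUNX1 (0, 4, 52, 62, 11, 124, 7, 0 and 8 without lines 1 to 9 in order) and 0 to 132 for BATF (0, 4, 132, 0, 2 and 29 without lines 1, 2, 4, 5, 8 and 9). For MYC, MAX, NOTCH2 and JUNB it was 0 under every setting. The causes of these changes were not tested. The positive share of associated rows was 36.9% for BATF and 46.5% for RUNX3, and 47.2% and 51.8% after quantile normalization. No paired analysis was possible because all 9 lines belong to a single group.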

Other observations

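Without line 1, 4 of the 36 pairs had an unadjusted two-sided exact permutation p under 0.05. Beside RBPJ with HES1, RUNX3 with HES1 and RUNX3 with NOTCH2, this was NOTCH2 with RUNX1, at r = 0.76 (exact permutation p = 0.027; rho = 0.67, p = 0.083; n = 8), against -0.17 over all 9 lines. MYC and HES1 reached rho = 0.81 (exact permutation p = 0.022, n = 8) but r = 0.60 (exact permutation p = 0.12), and rho was 0.50 over all 9 lines. These pairs were picked after their values were seen, and the p-values are not adjusted.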
